A study of Homo sapiens with 12 samples.

Results

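The 7 RNAs described here are GAS5, SNHG5, SNHG8, SNHG15, SNHG16, ZFAS1 and EPB41L4A-AS1, spliced transcripts without a long protein product whose introns carry small nucleolar RNAs (snoRNAs). They were chosen with earlier results of these data known and were found by name in the probe annotation. Among probe sets with 1 gene symbol, each of the 7 had a single one, out of 53617 probe sets on the array and 14884 genes named. RNA abundance was measured on 12 arrays of 2 human lines, A431 and HSC-1, both established from squamous cell carcinoma of the skin. In each line 3 arrays came from cells given 100 nM everolimus, which is related to rapamycin and blocks mTOR complex 1, for 72 h and 3 from cells given the vehicle DMSO for 72 h. Nothing in the labels ties the arrays within a group to separate cultures. The p-values therefore reflect array-to-array spread alone, and that spread may be technical.

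A snoRNA guides enzymes to chosen bases of ribosomal RNA, where box C/D snoRNAs direct methylation of the ribose and box H/ACA snoRNAs direct pseudouridine formation. In vertebrates most are cut out of the introns of a host transcript after splicing. The spliced host RNA that remains is for several of these genes bound by ribosomes and destroyed by nonsense-mediated decay, so that blocking translation makes it accumulate. Many hosts also begin with a run of pyrimidines, the terminal oligopyrimidine (TOP) start that they share with ribosomal protein mRNAs and that places translation under mTOR complex 1. GAS5, the growth arrest-specific transcript, is the best studied of them and was first isolated as an RNA that builds up in growth-arrested cells.

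The annotated transcript starts are shown because the TOP start is the sequence feature for which these hosts are known. In the RefSeq table of GRCh38.p14, 6 of the 7 had an entry, and each line below runs 5′ to 3′ on the gene's own strand, from 40 bases before the annotated first base of the transcript to 30 bases from that base on, so that the first base is letter 41. The capitals near the start mark a pyrimidine run, which is a C followed by at least 4 further pyrimidines, beginning within 10 bases of the first base, searched on the gene's strand because it concerns the RNA. The capitals further to the left mark the letters TATAA, the core of the TATA box, between 40 and 20 bases before it.
SNHG5, chr6:85678704-85678773, minus strand: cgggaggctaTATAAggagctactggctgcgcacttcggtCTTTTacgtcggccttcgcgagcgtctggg
ZFAS1, chr20:49278602-49278671, plus strand: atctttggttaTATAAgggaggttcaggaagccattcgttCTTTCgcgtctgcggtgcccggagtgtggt
SNHG8, chr4:118278722-118278791, plus strand: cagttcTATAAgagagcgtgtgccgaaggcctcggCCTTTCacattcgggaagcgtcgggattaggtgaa
SNHG16, chr17:76557724-76557793, plus strand: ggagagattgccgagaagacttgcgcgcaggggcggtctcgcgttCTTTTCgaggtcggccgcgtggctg
GAS5, chr1:173869016-173869085, minus strand: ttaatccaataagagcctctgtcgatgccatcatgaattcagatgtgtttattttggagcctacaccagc
EPB41L4A-AS1, chr5:112160486-112160555, plus strand: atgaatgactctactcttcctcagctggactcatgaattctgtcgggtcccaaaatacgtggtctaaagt

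SNHG5 and ZFAS1 held a pyrimidine run of 5 letters beginning exactly at the annotated first base, which 4.07% of the 35116 promoters in the table also had. In SNHG8 and SNHG16 a run of 6 letters began 5 bases before the first base and at base 6, so 4 of 6 held a run within 10 bases, as 33.5% of all promoters did. No such run lay in these windows of GAS5 and EPB41L4A-AS1. The table gives a single start for a gene, while GAS5 has 50 RefSeq transcripts and EPB41L4A-AS1 and SNHG5 have 1 each. TATAA stood on the gene strand in SNHG5, ZFAS1 and SNHG8, at 30, 29 and 34 bases before the start, and in 3.91% of all promoters. On the other strand 1 of the 6 and 1.73% of all promoters held it. These matches are letters in a window and were not tested for use.

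A total of 22 snoRNA genes lie inside the 7 hosts by the RefSeq gene annotation. GAS5 spans 11 of them, among them SNORD44, SNORD47, SNORD74, SNORD81 and SNORA103. SNHG16 holds SNORD1A, SNORD1B and SNORD1C, ZFAS1 holds SNORD12, SNORD12B and SNORD12C, and SNHG5 holds SNORD50A and SNORD50B. SNHG8, SNHG15 and EPB41L4A-AS1 hold 1 each, the H/ACA snoRNAs SNORA24, SNORA9 and SNORA13. No probe set with 1 gene symbol was named for any of the 22 in the annotation used. Probe sets with more than 1 symbol were not used for this, so the snoRNAs themselves are not analysed here. The host values below come from probe sets annotated to the hosts. Whether these probe sets read spliced host RNA, unspliced RNA or snoRNA sequence was not tested.

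The values are log2 levels that the authors made with RMA, a method that places all arrays on a common distribution. Array medians over all probe sets lay between 4.34 and 4.39, the correlation was 0.989 to 0.992 within a group and 0.955 to 0.962 between the lines. All 7 host RNAs lay above the array median on all 12 arrays and so passed the filter on low values. Within its array ZFAS1 stood between the 96.4th and 98.5th percentile of probe sets, GAS5 between the 95.9th and 97.5th, and SNHG15, the lowest placed, between the 66.3th and 80.8th. Keratinocyte and epithelial markers were present in both lines, with all 7 named ones (KRT5, KRT14, DSG3, DSP, EPCAM, KRT8 and KRT18) above the array median on every array. The endothelial markers PECAM1 and VWF and the melanocyte markers MLANA and TYR were below it on every array, while the melanocyte marker PMEL was below it on all HSC-1 arrays but not on all 6 A431 arrays. The fibroblast marker LUM was above it on all 6 A431 arrays and below it on the HSC-1 arrays, DCN was below it in both lines, and the leukocyte marker CD68 was above it in both; their part in the results was not tested.

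With everolimus, some of the host RNAs rose by small amounts. Because the 7 were chosen with earlier results of these data known, the shares of all genes given beside them describe the 7 and are no test. In HSC-1, 4 of the 7 rose and 0 fell at a limma adjusted p of 0.05: EPB41L4A-AS1, ZFAS1, GAS5 and SNHG5, by 1.18-fold to 1.23-fold. In A431, 1 of the 7 rose, SNHG8, by 1.17-fold, and 0 fell. Over all 10613 genes tested, 18.6% passed in HSC-1, with 7.34% rising and 11.3% falling, and 6.73% passed in A431, with 2.39% rising and 4.33% falling. The median log2 difference of the 7 was 0.24 in HSC-1 and 0.12 in A431, against -0.02 and -0.0038 over all genes. Both lines gave a positive difference for 6 of the 7, as they did for 23.9% of all genes. SNHG15 was the exception. At an unadjusted p of 0.05, 5 of the 7 passed in HSC-1, where 30.0% of all genes did, and 3 in A431, where 19.1% did.

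**Figure D1:**
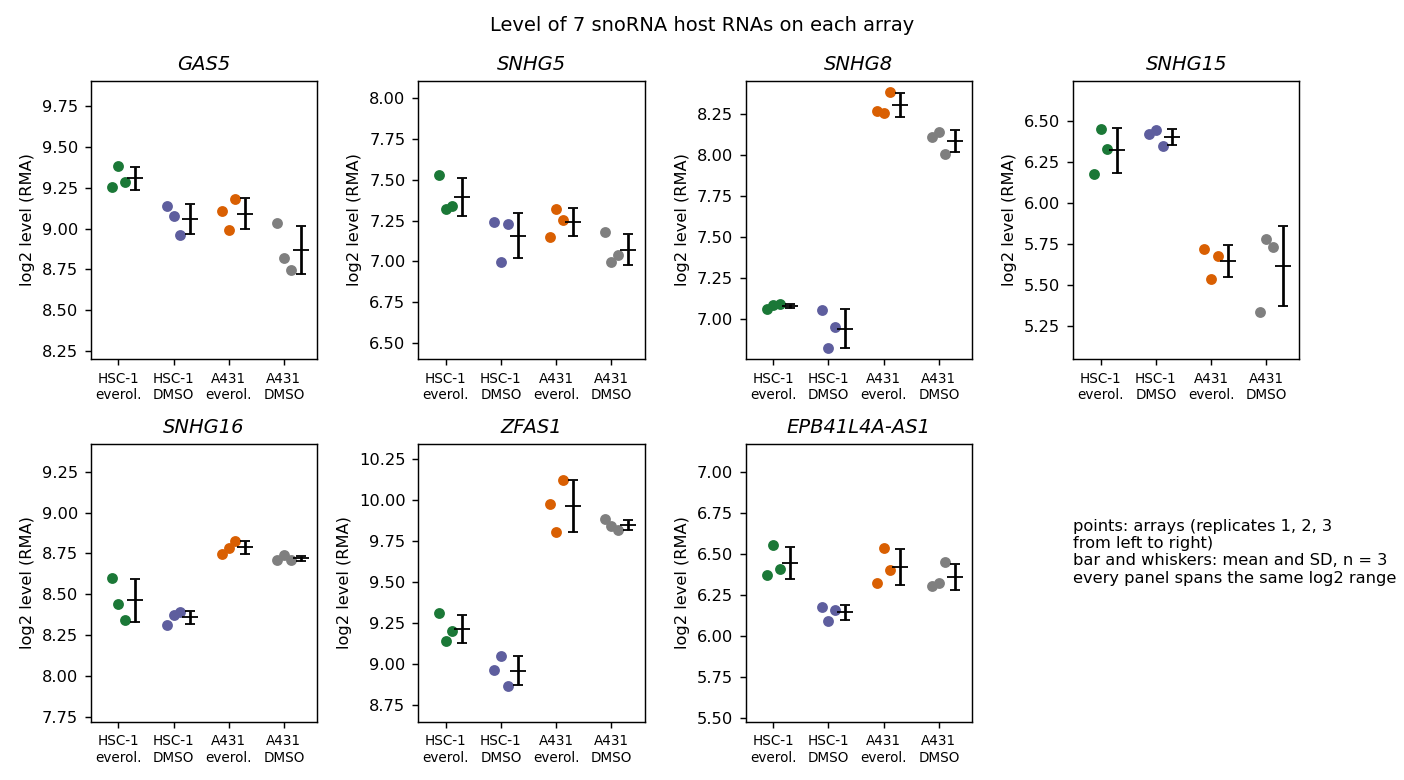
Log2 RMA level (vertical axis) of each of the 7 host RNAs on every array, by group, with the mean and SD of 3 arrays beside the points. In HSC-1 the everolimus arrays lie wholly above the DMSO arrays for 5 of the 7, and SNHG8, ZFAS1, SNHG16 and SNHG15 differ more between the lines than with the drug.

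**Figure D2:**
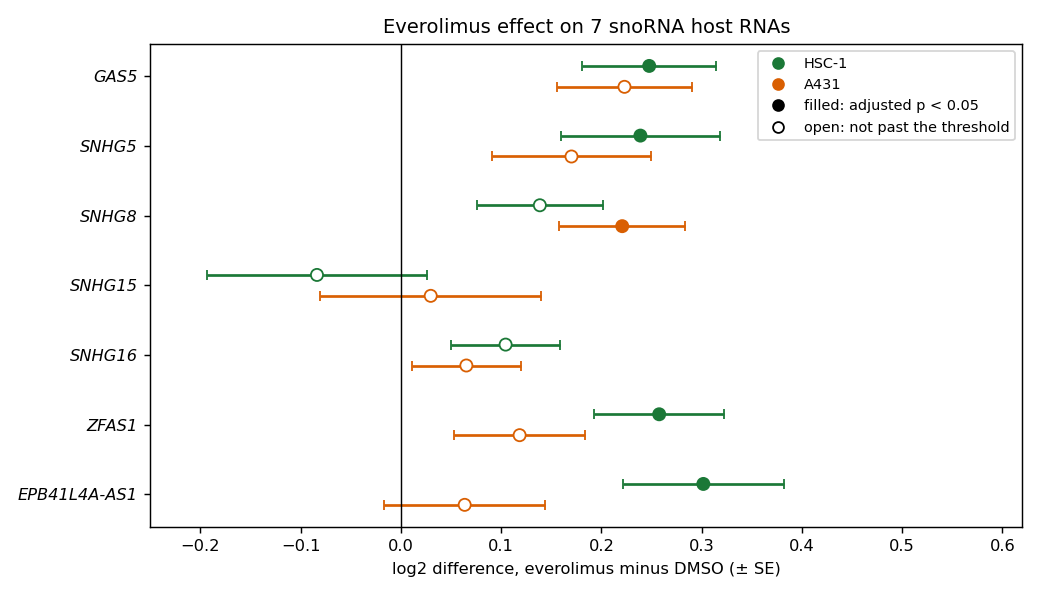
Log2 difference of everolimus minus DMSO with its moderated SE (horizontal axis) for each host RNA in HSC-1 and A431; filled points passed an adjusted p of 0.05. In HSC-1, 4 points are filled, at 0.24 to 0.30, and in A431 1 is filled, SNHG8 at 0.22.

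GAS5 (probe set 16696504) hosts C/D snoRNAs, which guide ribose methylation, and SNORA103. Its levels were 9.25, 9.38 and 9.28 in HSC-1 with everolimus, against 9.14, 9.07 and 8.96 in HSC-1 with DMSO. All 3 everolimus arrays lay above all 3 DMSO arrays. The log2 difference was 0.25 ± 0.07 (moderated SE, limma adjusted p = 0.0143), or 1.19-fold. In A431 GAS5 had 9.10, 8.99 and 9.18 with everolimus, against 9.03, 8.82 and 8.75 with DMSO. Here DMSO replicate 1 overlapped the everolimus arrays, and the difference of 0.22 ± 0.07 did not pass (adjusted p = 0.0540). The A431 value passed without A431 DMSO replicate 1 (0.31, adjusted p = 0.00759), without A431 everolimus replicate 2 (0.27, adjusted p = 0.0382) and without HSC-1 DMSO replicate 3 (0.22, adjusted p = 0.0495). The HSC-1 call was lost without HSC-1 DMSO replicate 3 (0.20, adjusted p = 0.0782) or HSC-1 everolimus replicate 2 (0.21, adjusted p = 0.0770). The effects in the 2 lines differed by 0.02 ± 0.09, HSC-1 minus A431 (adjusted p = 0.922).

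ZFAS1 (16914733), which hosts the SNORD12 family and is known from mouse mammary gland as a regulator of epithelial growth, rose in HSC-1. Its levels were 9.31, 9.14 and 9.20 with everolimus, against 8.96, 9.04 and 8.86 with DMSO, with no overlap. The difference was 0.26 ± 0.07 (limma adjusted p = 0.00893), the smallest p of the 7 in this comparison. The call was lost without HSC-1 DMSO replicate 3 (0.21, adjusted p = 0.0538) or HSC-1 everolimus replicate 1 (0.21, adjusted p = 0.0518). A431 had 9.98, 9.80 and 10.12 with everolimus, against 9.88, 9.84 and 9.82 with DMSO. Everolimus replicate 2 lay below all 3 DMSO arrays there while the other two lay above them, and the difference of 0.12 ± 0.07 did not pass (adjusted p = 0.346).

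EPB41L4A-AS1 (16987986), the host of SNORA13, gave the largest everolimus difference of the 7 in HSC-1 and one of the smallest in A431. In HSC-1 it had 6.37, 6.56 and 6.41 with everolimus, against 6.18, 6.09 and 6.16 with DMSO. These arrays did not overlap, and the difference was 0.30 ± 0.08 (limma adjusted p = 0.0131), or 1.23-fold. The call was lost without HSC-1 DMSO replicate 2 (0.28, adjusted p = 0.0532) or HSC-1 everolimus replicate 2 (0.25, adjusted p = 0.0771). In A431 it had 6.32, 6.54 and 6.40 with everolimus, against 6.30, 6.32 and 6.45 with DMSO, which overlapped (0.06 ± 0.08, adjusted p = 0.749). The difference between the effects, HSC-1 minus A431, was 0.24 ± 0.11, with an unadjusted p of 0.0512 and an adjusted p of 0.217.

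SNHG5 (17021407), host of the C/D snoRNAs SNORD50A and SNORD50B, had 7.53, 7.32 and 7.34 in HSC-1 with everolimus, against 7.24, 6.999 and 7.23 in HSC-1 with DMSO. The arrays did not overlap, and the difference of 0.24 ± 0.08 was close to the threshold (limma adjusted p = 0.0420). It was no longer called without HSC-1 DMSO replicate 2, the lowest array (0.16, adjusted p = 0.220), or without HSC-1 everolimus replicate 1, the highest (0.17, adjusted p = 0.189). In A431 the levels were 7.15, 7.32 and 7.25 with everolimus, against 7.18, 6.99 and 7.04 with DMSO. The difference of 0.17 ± 0.08 did not pass (adjusted p = 0.247).

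SNHG8 (16970068), the host of SNORA24, was the single member called in A431. Its levels were 8.27, 8.26 and 8.39 with everolimus, against 8.11, 8.14 and 8.01 with DMSO. The arrays did not overlap, and the difference was 0.22 ± 0.06 (limma adjusted p = 0.0398), with almost the same size as that of GAS5 in the same line. The call was lost without any one of the 6 A431 arrays (adjusted p from 0.0615 to 0.157, with differences of 0.18 to 0.25) and without HSC-1 everolimus replicate 2 (adjusted p = 0.0506), and it held under 10 of 25 alternatives. In HSC-1, SNHG8 had 7.06, 7.08 and 7.09 with everolimus, against 7.05, 6.82 and 6.95 with DMSO. The everolimus arrays lay just above DMSO replicate 1, and the difference of 0.14 ± 0.06 did not pass (adjusted p = 0.142).

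SNHG16 (16838094), which hosts the SNORD1 family, gave small positive differences that did not pass in either line. In HSC-1 it had 8.60, 8.44 and 8.34 with everolimus, against 8.31, 8.37 and 8.39 with DMSO, and the difference was 0.10 ± 0.05 (limma adjusted p = 0.212). Without HSC-1 everolimus replicate 3, which lay among the DMSO arrays, it was 0.16 and passed (adjusted p = 0.0341). In A431 it had 8.75, 8.78 and 8.83 with everolimus, against 8.71, 8.74 and 8.71 with DMSO, which did not overlap although the difference was 0.07 ± 0.05 (adjusted p = 0.582).

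SNHG15 (17057413), the host of SNORA9, showed no common direction. It had 6.18, 6.46 and 6.33 in HSC-1 with everolimus, against 6.42, 6.44 and 6.35 with DMSO, a difference of -0.08 ± 0.11 (limma adjusted p = 0.683). In A431 it had 5.72, 5.53 and 5.68 with everolimus, against 5.33, 5.78 and 5.73 with DMSO, a difference of 0.03 ± 0.11 (adjusted p = 0.925). A431 DMSO replicate 1 was the lowest of the 6 arrays, and without it the A431 difference was -0.11 (adjusted p = 0.656). SNHG15 also had the largest SE of the 7.

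The everolimus arrays lay wholly above the DMSO arrays for 5 of the 7 host RNAs in HSC-1, all but SNHG15 and SNHG16, and for 2 in A431, SNHG8 and SNHG16. Over all genes tested this held for 13.7% in HSC-1 and 11.0% in A431. For 0 of the 7 did they lie wholly below, which held for 19.6% of all genes in HSC-1 and 13.5% in A431. For 0 of the 7 did the difference between the everolimus effects in the lines pass the limma threshold, against 10.5% of all genes, 4.84% with a higher and 5.69% with a lower effect in HSC-1. At an unadjusted p of 0.05 it was also 0 of 7, against 23.4% of all genes. With so few members these counts do not show that the effects were alike. The differences of the 7 lay between -0.11 ± 0.16 for SNHG15 and 0.24 ± 0.11 for EPB41L4A-AS1. Of the A431 arrays, everolimus replicate 3 was the highest of its group for 4 of the 7 host RNAs and 43.4% of all genes tested, everolimus replicate 2 the lowest for 4 and 39.7%, and DMSO replicate 3 the lowest for 4 and 43.9%. Without everolimus replicate 3 or without DMSO replicate 3, 0 of the 7 rose in A431, and SNHG8 had 0.18 in both cases (adjusted p = 0.143 and 0.157).

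The order of the 4 groups differed between the host RNAs. GAS5 and SNHG5 ran in the same order, from HSC-1 with everolimus (9.31 ± 0.07 for GAS5, SD, n = 3) through A431 with everolimus (9.09 ± 0.09) and HSC-1 with DMSO (9.06 ± 0.09) to A431 with DMSO (8.87 ± 0.15). For GAS5 only the first step separated the arrays of neighbouring groups, and for SNHG5 neighbouring groups overlapped at every step. SNHG8, ZFAS1 and SNHG16 were highest in A431 with everolimus, then A431 with DMSO, then HSC-1 with everolimus, and lowest in HSC-1 with DMSO, and in all 3 the arrays of the lines were separated. SNHG15 ran the other way, with both HSC-1 groups above both A431 groups and overlap between the treatments within each line. For EPB41L4A-AS1 the 3 upper groups overlapped and HSC-1 with DMSO lay below them (6.14 ± 0.05).

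Between the lines under DMSO the host RNAs did not share a direction. SNHG8, ZFAS1, SNHG16 and EPB41L4A-AS1 were lower in HSC-1, SNHG15 and GAS5 were higher, and SNHG5 did not pass. Such calls were common, with 59.4% of all genes tested passing, 30.2% lower and 29.2% higher in HSC-1. This comparison shares its DMSO arrays with the everolimus comparisons above.

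**Figure D3:**
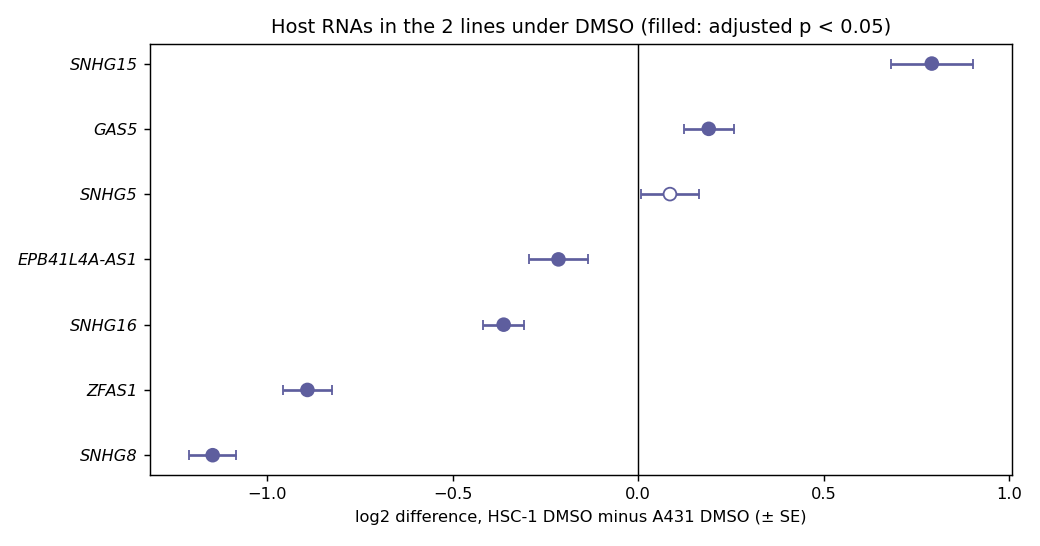
Log2 difference of HSC-1 with DMSO minus A431 with DMSO, with its moderated SE (horizontal axis), for the 7 host RNAs; filled points passed an adjusted p of 0.05. The values run from -1.15 for SNHG8 to 0.79 for SNHG15, and SNHG5 at 0.09 is the only open point.

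SNHG8 had a mean of 6.94 ± 0.12 in HSC-1 with DMSO, against 8.08 ± 0.07 in A431 with DMSO (SD, n = 3 each). The log2 difference was -1.15 ± 0.06 (limma adjusted p = 9.9e-12), or 2.21-fold lower in HSC-1, and 95.9% of all genes had a larger signed difference. ZFAS1 averaged 8.96 ± 0.09 in HSC-1 and 9.85 ± 0.03 in A431, a difference of -0.89 ± 0.07 (adjusted p = 6.8e-10) or 1.85-fold lower. SNHG16 averaged 8.36 ± 0.04 in HSC-1 and 8.72 ± 0.02 in A431, a difference of -0.36 ± 0.05 (adjusted p = 1.1e-05). These 3 and EPB41L4A-AS1 lay wholly lower in HSC-1, as did 32.9% of all genes.

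SNHG15 averaged 6.41 ± 0.05 in HSC-1 with DMSO, against 5.61 ± 0.25 in A431 with DMSO. The difference of 0.79 ± 0.11 was 1.73-fold (limma adjusted p = 4.1e-06), and SNHG15 was the one host RNA wholly higher in HSC-1, as were 32.3% of all genes. GAS5 was 0.19 ± 0.07 higher in HSC-1 (adjusted p = 0.0203), with overlapping arrays. This call was lost without A431 DMSO replicate 2 (0.17, adjusted p = 0.0763) or 3 (0.13, adjusted p = 0.125) and without HSC-1 DMSO replicate 1 (0.15, adjusted p = 0.104) or 2 (0.18, adjusted p = 0.0544). EPB41L4A-AS1 averaged 6.14 ± 0.05 in HSC-1 and 6.36 ± 0.08 in A431 (-0.21 ± 0.08, adjusted p = 0.0282). Its call was lost without A431 DMSO replicate 3 (-0.17, adjusted p = 0.120) or HSC-1 DMSO replicate 2 (-0.19, adjusted p = 0.0910), and with repeated quantile normalization (-0.16, adjusted p = 0.110). SNHG5 averaged 7.16 ± 0.14 in HSC-1 and 7.07 ± 0.10 in A431 (0.09 ± 0.08, adjusted p = 0.378).

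Some host RNAs share their locus with other named genes. GAS5 overlaps ZBTB37, a zinc finger gene on the opposite strand, and the noncoding GAS5-AS1. ZBTB37 had everolimus differences of 0.22 ± 0.09 in HSC-1 (limma adjusted p = 0.112) and -0.13 ± 0.09 in A431 (adjusted p = 0.493), the second opposite in sign to GAS5. GAS5-AS1 had 0.17 ± 0.15 in HSC-1 (adjusted p = 0.522) and -0.25 ± 0.15 in A431 (adjusted p = 0.413). Between the lines under DMSO, HSC-1 minus A431, ZBTB37 had 0.44 ± 0.09 (limma adjusted p = 3.7e-04), the same sign as GAS5. GAS5-AS1 had -0.35 ± 0.15 there and did not pass (adjusted p = 0.0548). EPB41L4A, which overlaps EPB41L4A-AS1 on the opposite strand, did not pass the filter on low values, with group means of 4.17 in HSC-1 with everolimus, 4.10 in HSC-1 with DMSO, 4.30 in A431 with everolimus and 4.30 in A431 with DMSO. Whether the probe sets separate the strands is not given in the sources used here.

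The genes with the most similar pattern were found by the root mean square difference on the log2 scale over the 12 arrays, after the DMSO mean of the same line was subtracted. For GAS5 these were KIF26B at 0.047, MET at 0.065 and CDCA7L at 0.067, where the median over all genes was 0.23. KIF26B had everolimus differences of 0.21 in HSC-1 (limma adjusted p = 0.259) and 0.23 in A431 (adjusted p = 0.295) and passed in neither. MET, a receptor tyrosine kinase, had differences of 0.30 in HSC-1 (adjusted p = 8.4e-05) and 0.20 in A431 (adjusted p = 0.00775). CDCA7L had 0.31 in HSC-1 (adjusted p = 0.00586) and 0.25 in A431 (adjusted p = 0.0467). The nearest gene was RBM39 for ZFAS1 (0.051), ATRN for EPB41L4A-AS1 (0.067), PTCH1 for SNHG5 (0.064), WWC2 for SNHG8 (0.041), ZBTB5 for SNHG16 (0.033) and HCN4 for SNHG15 (0.063). Of these, RBM39 and ATRN passed in HSC-1, and none passed in A431. None of the 3 nearest genes of any of the 7 was another of the 7.

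**Figure D4:**
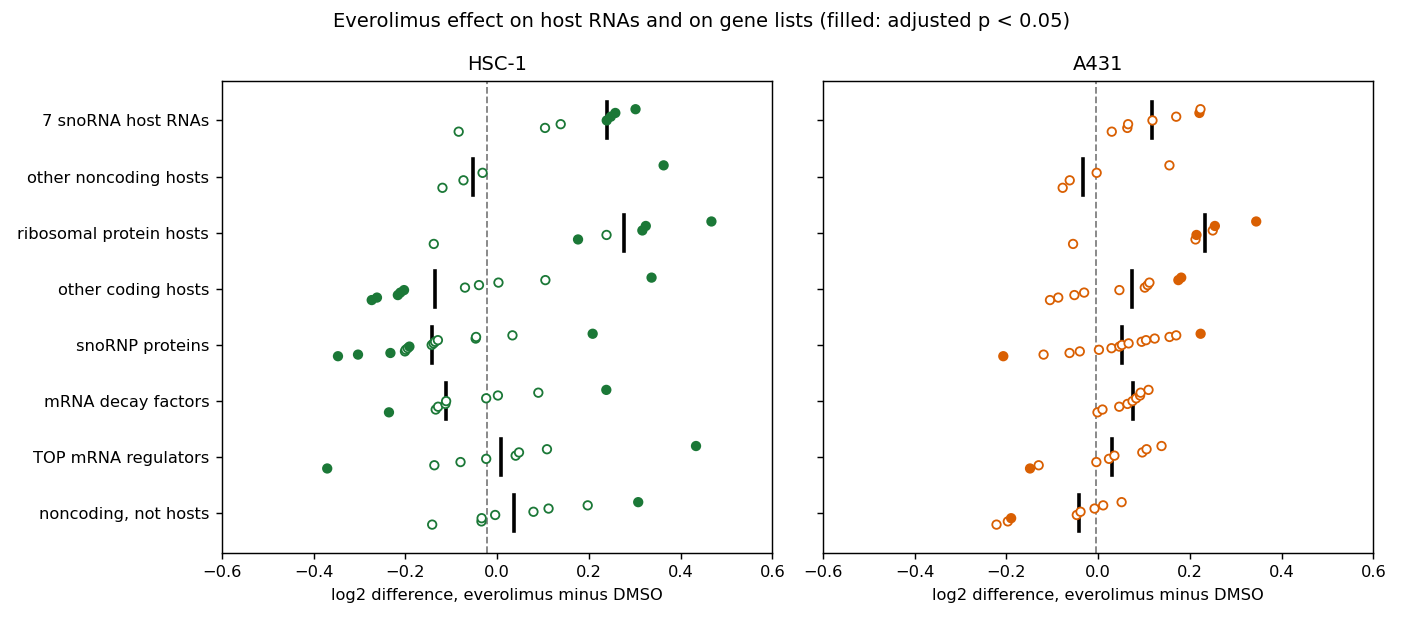
Log2 difference of everolimus minus DMSO (horizontal axis) for every tested gene of the 7 host RNAs and of 7 comparison lists, in HSC-1 (left) and A431 (right); filled points passed an adjusted p of 0.05, black bars are list medians and the dashed line is the median of all genes. The host RNAs and the ribosomal protein hosts have medians right of the dashed line in both lines, at 0.24 and 0.28 in HSC-1 and at 0.12 and 0.23 in A431.

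Other noncoding snoRNA hosts did not all show the same values. Of 19 listed, 4 had a named probe set and were tested. In HSC-1, 1 rose and 0 fell, with a median of -0.05, and in A431 0 of the 4 passed with limma, also at an unadjusted p of 0.05, with a median of -0.03. SNHG10 was the one that rose, with a mean of 6.14 ± 0.10 in HSC-1 with everolimus, against 5.78 ± 0.05 with DMSO (0.36 ± 0.09, limma adjusted p = 0.00597). SNHG17, SNHG20 and DANCR had differences of -0.12, -0.03 and -0.07 in HSC-1 and of -0.08, -0.0032 and -0.06 in A431. Under DMSO, SNHG17 (0.83 ± 0.08) and SNHG20 (0.30 ± 0.09) were higher in HSC-1, and SNHG10 (-0.72 ± 0.09) and DANCR (-0.46 ± 0.09) were lower.

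Ribosomal protein genes that host snoRNAs had positive medians in both lines. Of 25 listed, 6 were named and tested, and 4 rose in HSC-1 (median 0.28) and 3 in A431 (median 0.23), with 0 falling in either. Their levels differed widely, with means in HSC-1 with DMSO of 11.7 for RPL12 and 11.0 for RPL10. There RPL17 had 6.60, RPS3 6.39, RPL30 5.75 and RPL32 5.53, and which transcripts these probe sets read was not tested. RPS3, of the small subunit, rose by 0.32 ± 0.07 in HSC-1 and by 0.34 ± 0.07 in A431. RPL10, of the large subunit, rose by 0.47 ± 0.04 in HSC-1 and by 0.21 ± 0.04 in A431, where a variance prior without the trend ended the call (limma adjusted p = 0.0510). RPL17 rose by 0.32 ± 0.07 in HSC-1 and had -0.05 ± 0.07 in A431, and RPL12 rose by 0.25 ± 0.03 in A431 and 0.18 ± 0.03 in HSC-1.

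Other protein-coding hosts moved both ways. Of 29 listed, 10 were tested, and in HSC-1 1 rose and 5 fell (median -0.14), while in A431 2 rose and 0 fell (median 0.07). The elongation factor EEF2, host of SNORD37, rose by 0.34 ± 0.03 in HSC-1 and by 0.17 ± 0.03 in A431, where it likewise missed the threshold with that prior (limma adjusted p = 0.0812). The mitochondrial chaperone HSPA9 fell by 0.22 ± 0.04 in HSC-1, the transport receptor TNPO2 by 0.26 ± 0.06 and the initiation factor EIF5 by 0.27 ± 0.08. The EIF5 call was lost without HSC-1 DMSO replicate 1 (-0.24, adjusted p = 0.0780) or HSC-1 everolimus replicate 3 (-0.20, adjusted p = 0.0789). The import receptor IPO7 rose by 0.18 ± 0.05 in A431 (adjusted p = 0.0385), and leaving out 1 array ended this call for DMSO replicates 2 (0.139) and 3 (0.118) and everolimus replicates 1 (0.0650) and 3 (0.154) of A431, and for DMSO replicate 1 of HSC-1 (0.0522). The IPO7 call also ended with a replicate block (0.0591).

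Proteins that bind or assemble snoRNAs gave few calls in A431 and mostly falls among the calls in HSC-1. Of 15 tested of 19 listed, 1 rose and 4 fell in HSC-1 (median -0.14), and 1 rose and 1 fell in A431 (median 0.05). FBL, the fibrillarin methyltransferase that box C/D snoRNAs guide, rose by 0.21 ± 0.05 in HSC-1. NOP58, a core protein of the same particles, fell by 0.23 ± 0.04 in HSC-1, the assembly ATPase RUVBL2 by 0.35 ± 0.05 and the nucleolar chaperone NOLC1 by 0.30 ± 0.06. In A431, RUVBL1, the partner of RUVBL2, rose by 0.22 ± 0.06 (limma adjusted p = 0.0180) and NOP10, of the H/ACA particle, fell by 0.21 ± 0.05 (adjusted p = 0.0176). Both calls ended when DMSO replicate 1 of A431 was left out (0.0966 for RUVBL1, 0.0700 for NOP10), or everolimus replicate 1 (0.0756, 0.0650) or 2 (0.0556, 0.0592). NOP10 also needed DMSO replicate 2 (0.0818).

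Factors of nonsense-mediated decay and RNA breakdown showed few calls. Of 20 listed, 10 were named and 9 tested. In HSC-1, 1 rose and 1 fell (median -0.11), and in A431 0 passed with limma, also at an unadjusted p of 0.05 (median 0.07). XRN1, the exonuclease that degrades decapped RNA, rose by 0.24 ± 0.05 in HSC-1 (adjusted p = 0.00165). EIF4A3, of the exon junction complex, fell by 0.24 ± 0.06 (adjusted p = 0.00694), a call lost without HSC-1 DMSO replicate 2 (-0.18, adjusted p = 0.0520). UPF1, the central helicase of the pathway, had -0.13 in HSC-1 and 0.01 in A431. RBM8A had the smallest p of the list in A431 (0.11 ± 0.06, adjusted p = 0.371).

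Among 8 tested regulators of TOP mRNAs and of cap-dependent translation, of 12 listed, 1 rose and 1 fell in HSC-1 (median 0.0083), and 0 rose and 1 fell in A431 (median 0.03). The RNA-binding protein TIA1 rose by 0.43 ± 0.08 in HSC-1 (limma adjusted p = 0.000622), and the eIF4E-binding protein EIF4EBP1, a substrate of mTOR complex 1, fell by 0.37 ± 0.07. Its relative EIF4EBP2 fell by 0.15 ± 0.04 in A431 (adjusted p = 0.0281), a call lost without any A431 array except everolimus replicate 3 (adjusted p from 0.0575 to 0.120) and with a replicate block (0.0546).

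Noncoding RNAs that are not snoRNA hosts gave 1 rise and 0 falls among 8 tested of 18 listed in HSC-1 (median 0.04), and 0 rises and 1 fall in A431 (median -0.04). CRNDE rose by 0.31 ± 0.09 in HSC-1 (limma adjusted p = 0.0279), which was lost without HSC-1 DMSO replicates 1 (0.119) and 3 (0.0592) and everolimus replicates 1 (0.125) and 2 (0.137). MALAT1 fell by 0.19 ± 0.05 in A431 (adjusted p = 0.0340), a call that ended when DMSO replicate 1 (0.172) or any everolimus array of A431 (0.0566 to 0.108) was left out, and the mean of its probe sets gave 0.01. Of the 624 other tested genes annotated as long noncoding RNA, 7.69% rose and 2.88% fell in HSC-1, and 0.481% rose and 1.28% fell in A431.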

How the data were processed

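The authors deposited log2 expression per probe set. The submitters' processing notes name RMA and Affymetrix Expression Console, and versions and build are not given there or elsewhere in what was used. No column was left unused. Of 53617 probe sets, 16098 had 1 gene symbol, all matched by Entrez identifier to the RefSeq gene table of GRCh38.p14, which also gave the loci. Probe sets with more than 1 symbol were counted as unnamed together with those that had none, 37519 in all. Each gene was represented by its probe set with the highest mean, and 10613 of 14884 genes with at least 3 of 12 arrays above their array's median were tested. Group means of all 12 arrays were fitted with lmFit and eBayes with an intensity trend in limma 3.58.1 under R 4.3.3 (8 residual degrees of freedom), with Benjamini-Hochberg adjustment over the genes tested and a threshold of 0.05. Errors of differences are moderated SEs and errors of means are SDs of 3 arrays. Precision is limited by the number of arrays.

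The members and lists were chosen with earlier results of these data known. The text names the 7 host RNAs, genes at their loci, up to 3 rising and 3 falling genes of a list per comparison (or that with the smallest p), and the 3 genes of most similar pattern. Further list members are given for contrast, chosen after their values were seen, as was the TATAA search. Lists received no test. Alternatives were a replicate block, no or a stricter filter (60th percentile), priors without trend or robust, array weights, repeated quantile normalization, median centring, 6 arrays only, the mean of probe sets, all probe sets, an adjusted p of 0.01, a fold of 1.2 and leaving out each array. The procedure was tested on simulated data in which few genes were changed. It recovered 11.6% of log2 differences of 0.2 in A431 and 9.2% in HSC-1, and 33.2% and 34.4% of differences of 0.3. This setting differs from the data, where 18.6% of all genes passed in HSC-1 and 6.73% in A431. Recovery was also averaged over genes of every spread. The rates are therefore not those of the host RNAs, but a host RNA that did not pass may still have changed.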

Additional observations from a re-analysis of the deposited data

Results flagged for a closer look

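For 0 of the 7 host RNAs did the difference between the everolimus effects in the lines pass the threshold, where 10.5% of all genes did. Genes of the comparison lists that passed the limma test of the difference, HSC-1 effect minus A431 effect, are given here with adjusted p-values.

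Among ribosomal protein hosts the difference was 0.25 ± 0.05 for RPL10 (0.00415) and 0.37 ± 0.10 for RPL17 (0.0277), and among other coding hosts 0.16 ± 0.05 for EEF2 (0.0332) and -0.30 ± 0.08 for NCL (0.0136). NCL encodes nucleolin. Among snoRNA-binding and assembly proteins it was -0.34 ± 0.06 for NOP58 (0.00102), -0.36 ± 0.08 for RUVBL1 (0.00533), -0.41 ± 0.07 for RUVBL2 (0.000927), -0.35 ± 0.09 for NOLC1 (0.0131) and -0.36 ± 0.08 for TGS1 (0.00762), the enzyme that makes the cap of snRNAs and some snoRNAs. In NCL, NOP58, RUVBL1 and TGS1 the everolimus arrays lay wholly below the DMSO arrays in HSC-1 and wholly above them in A431. Among decay factors the difference was -0.28 ± 0.08 for EIF4A3 (0.0312) and 0.24 ± 0.07 for XRN1 (0.0286), and among regulators of TOP mRNAs -0.48 ± 0.10 for EIF4EBP1 (0.00462) and 0.19 ± 0.06 for EIF4EBP2 (0.0363). Leaving out single arrays ended the calls of RPL17 (adjusted p up to 0.0844), EEF2 (up to 0.0924), EIF4A3 (up to 0.0936), XRN1 (up to 0.0881) and EIF4EBP2 (up to 0.106). Without the intensity trend the calls of RPL10 (0.0737), RPL17 (0.0737), EEF2 (0.204), NOLC1 (0.0710), EIF4A3 (0.104), XRN1 (0.104) and EIF4EBP2 (0.171) were lost. The replicate block ended those of EEF2 (0.0596) and EIF4EBP2 (0.0644), median centring that of XRN1 (0.0520), and fitting all probe sets those of NOLC1 (0.0632), XRN1 (0.0766), RPL17 (0.0856), EEF2 (0.0858), EIF4A3 (0.0948) and EIF4EBP2 (0.0961).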

How the results depend on the processing

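Of the 7 host RNAs, SNHG8, ZFAS1, SNHG16 and SNHG15 kept their calls between the lines under all 25 alternatives. With everolimus in HSC-1 the calls held under 22 of 25 for EPB41L4A-AS1, 21 for ZFAS1, 19 for GAS5 and 16 for SNHG5, and in A431 under 10 for SNHG8. The number of host RNAs that rose in A431, 1, was 0 with a replicate block, no filter, no intensity trend, array weights, median centring, all probe sets, an adjusted p of 0.01 or a fold of 1.2, and 2 with the stricter filter or repeated quantile normalization. In HSC-1, 4 rose, against 1 without the trend, at 0.01 or at a fold of 1.2, and 2 with all probe sets. The 2 host RNAs higher in HSC-1 under DMSO became 1 under the same 4 settings. The lower call of EPB41L4A-AS1 was lost with repeated quantile normalization (0.110), at 0.01 and at a fold of 1.2. Leaving out 1 array gave 0 to 2 in A431, 2 to 5 in HSC-1, and 1 to 2 higher and 3 to 4 lower between the lines. All genes called in A431, 714, became 438 without the trend, 347 at 0.01 and 453 at a fold of 1.2 (456 to 836 without 1 array, with 458 without A431 DMSO replicate 1 and 456 without A431 DMSO replicate 2). The 1977 in HSC-1 became 3375 with all probe sets, 1115 at 0.01 and 1228 at the fold (1405 to 2032 without 1 array). The 1118 of the difference between the effects became 541 at 0.01 (879 to 1161), and the 6303 between the lines 13476 with all probe sets (5922 to 6364). The cause of these changes was not tested, beyond the stricter thresholds and the different number of features.

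Signs turned only for values that had not passed, except MALAT1. With 1 array left out, SNHG15 in A431 ranged from -0.112 to 0.113, turning for DMSO replicate 1 and everolimus replicate 1 of A431. The difference between the effects ranged from -0.0585 to 0.0841 for GAS5, from -0.0104 to 0.112 for SNHG5, from -0.197 to 0.0278 for SNHG15 and from -0.0299 to 0.0984 for SNHG16. MALAT1 in A431 was 0.0130 with the mean of its probe sets. With at least 6 letters after the C, 0 of 6 starts and 13.5% of promoters held a pyrimidine run within 10 bases. With at least 4 letters after the C, 4 of 6 starts and 51.0% of promoters held a run within 20 bases.

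In the labels, same-numbered arrays shared only a number. Their deviations from the group means correlated between -0.155 and 0.0745, and whether they were prepared together cannot be told from this. The replicate block ended the SNHG8 call in A431 (0.22, adjusted p = 0.0607) and changed no other call of the 7. In A431 it also ended the calls of IPO7 (0.0591) and EIF4EBP2 (0.0546). Among the named list genes in A431, calls were lost without the trend for IPO7 (0.170), EIF4EBP2 (0.171), MALAT1 (0.170) and NOP10 (0.0795), with all probe sets for the same genes (0.131, 0.0876, 0.132 and 0.0549), with 6 arrays for IPO7 (0.0640) and MALAT1 (0.0742), and for IPO7 with no filter (0.0526) or median centring (0.0698). In HSC-1 they were lost without the trend and with all probe sets for CRNDE (0.0568, 0.0708) and EIF5 (0.0503, 0.0531). No second probe set of a host RNA and no named probe set of a nested snoRNA existed to which the planned filter alternative could apply.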
